A study of Homo sapiens with 2 samples.

Results

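The proteasome is the large protease that degrades ubiquitin-tagged proteins, and the genes of its subunits and dedicated helpers were followed in a map of C-to-U RNA editing. Transcript loci of the deposited isoform models were assigned to protein-coding genes of GENCODE by how much exon sequence they shared on one strand, the largest overlap deciding, and loci whose symbol starts with PSMA, PSMB, PSMC, PSMD, PSME, PSMF or PSMG and a digit were kept. Of 12869 loci with an isoform model, 11395 received a protein-coding symbol and 44 were proteasome genes. GENCODE holds 50 protein-coding symbols of this form, and the 6 without a locus were PSMA8, PSMB8, PSMB9, PSMB10, PSMB11 and PSMD5. Among the 44 are PSMC3IP and PSME3IP1, whose products interact with a subunit and are not subunits. In all, 43 of the 44 genes had an edit site in at least 1 library and 39 had sites in both. On the strand of these genes the RBFOX2 table held 688 sites of 122035 listed positions, and the enzyme-only table listed 751 of 103776.

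The cells were HEK293T, a human embryonic kidney line that the labels also write HEK293XT. In both libraries cells fixed with methanol had received APOBEC1, a cytidine deaminase, joined to a nanobody that recognises rabbit IgG. In the RBFOX2 library a rabbit antibody against RBFOX2, a splicing regulator that binds UGCAUG, had been added first and holds the fusion near the RNA that RBFOX2 binds. The enzyme-only library received the fusion without that antibody, and its listed conversions serve as the background. Short-read controls of the study that lacked the enzyme also gave C-to-U calls. The study ascribes those to RNA damage or to errors of reverse transcription or PCR. No control without the enzyme is among the 2 libraries, so such errors cannot be told from deamination here. Full-length cDNA was sequenced on the PacBio platform from 1 library per group, so differences below are between 2 libraries, with no replicate check and no test. All intervals are 95% ones by the exact Clopper-Pearson method. They cover only the error of counting sites, and neither differences between libraries nor the dependence of sites within a gene. PCR reads are also not independent molecules, which the intervals leave out. Gene reads of all listed genes summed to 2233600 in the enzyme-only library and 2431345 in the RBFOX2 library. Of 8 genes known for this line, 7 were listed in at least 1 table, LHX1 being in neither, and PTPRC, ALB and GFAP, markers of blood, liver and glial cells, were in neither.

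In the barrel of the proteasome, the 20S core, outer rings of alpha subunits (PSMA) gate the entry and inner rings of beta subunits (PSMB) hold the active sites. The 19S cap binds ubiquitin chains through non-ATPase subunits (PSMD) and unfolds substrates with a ring of ATPases (PSMC). PSME proteins are other activators of the core, PSMF1 is an inhibitor, and PSMG1 to PSMG4, PSMD5, PSMD9 and PSMD10 are chaperones that help to assemble the core or the cap and leave the finished particle.

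The sequences that carry the results follow, in hg38 coordinates, written 5′ to 3′ along the RNA with the edited cytosine in capitals. PSMB5, the beta subunit with chymotrypsin-like activity, is shown first because its sites were nearly all in the enzyme-only library. Its 4 sites with 4 converted reads there, the 1 that would create a stop codon, and both RBFOX2 sites lie on the minus strand of chromosome 14.
PSMB5 enzyme-only, 3′UTR, chr14:23026050-23026070: gcuuguguuuCuuggggugac
PSMB5 enzyme-only, 3′UTR, chr14:23026021-23026041: guaauacggaCacagugaccc
PSMB5 enzyme-only, coding, chr14:23026187-23026207: gagaugccuaCucaggaggug
PSMB5 enzyme-only, coding, chr14:23026305-23026325: ucuguagguuCuggcucugug
PSMB5 enzyme-only, coding, stop created, chr14:23033496-23033516: ucggcaauguCgaaucuauga
PSMB5 RBFOX2, 3′UTR, chr14:23025860-23025880: uaacauuacaCuacucacuac
PSMB5 RBFOX2, coding, chr14:23026363-23026383: cuuuccaggcCucuacuacgu
In the enzyme-only windows of PSMB5 the base before the cytosine is A or U, and in the coding RBFOX2 window it is C.

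PSMD10, also called gankyrin, a chaperone of the 19S cap, showed the opposite order, and the 5 unshared RBFOX2 sites with 5 converted reads are given. All are in its 3′UTR on the minus strand of the X chromosome, and each has A before the cytosine.
PSMD10 RBFOX2, chrX:108084407-108084427: cucuaaaauaCugaaaaacaa
PSMD10 RBFOX2, chrX:108084455-108084475: gggauauuuaCauauuuuagu
PSMD10 RBFOX2, chrX:108084809-108084829: ugcugaguuaCuuguucgaag
PSMD10 RBFOX2, chrX:108084855-108084875: aguuuucucaCcuucaaaguc
PSMD10 RBFOX2, chrX:108084905-108084925: guccuacaaaCuaauguauuu
None of these windows holds UGCAUG.

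Copies of UGCAUG with edits beside them were few, and 4 are printed with the motif and any cytosine edited in either library in capitals.
PSMA7 coding exon, minus strand, chr20:62140816-62140845: gaugacaacgucUGCAUGgcCuuugcaggu
PSMC6 3′UTR, plus strand, chr14:52727629-52727658: auuuuugauggCUGCAUGaCagauguuggc
PSMD1 coding exon, plus strand, chr2:231070052-231070081: agccuuaagcucUGCAUGuCuuuaaugcag
PSMG3 3′UTR, minus strand, chr7:1567501-1567530: uaagaucauCugUGCAUGacggggagggug
The C next to the motif was listed in the RBFOX2 table for PSMA7 and PSMD1 and in both tables for PSMC6. That of PSMG3 was listed in the enzyme-only table with 1 converted read, fewer than the RBFOX2 table lists for this gene.

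The tables list a position only where converted reads exceed 0.002 of the reads of the whole gene. A deeper library therefore needs more converted reads before a site is listed, and the proteasome genes are deep: their median depth was 635 reads (RBFOX2) and 593 (enzyme-only), against 141 and 128 for other genes listed in both. Reads were higher in the RBFOX2 library for 35 of the 39 proteasome genes listed in both, with a median ratio of 1.15 against 1.11 for other genes. In 11 of them the RBFOX2 library had the higher minimum. Sites of a gene were therefore counted at the same minimum of converted reads in both libraries, the higher of both. A site listed in both tables is called shared and was left out of the comparisons, and the remaining sites are the unshared ones.

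Counted in this way, unshared sites of proteasome genes numbered 555 with the RBFOX2 antibody and 416 with the enzyme alone, a ratio of 1.33 (1.17 to 1.52). The ratio over all other genes was 1.28 (1.27 to 1.29), inside that interval. Summed over these sites, converted reads were 988 and 664. Within the 39 genes listed in both tables the ratio was 1.39 (1.22 to 1.58). As listed, with no common minimum, the order was the other way, at 0.898 (0.799 to 1.01).

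The ratio depended on the depth of the genes. In the 11 proteasome genes where 1 converted read was enough, it was 1.38 (1.16 to 1.64) against 1.25 in other genes. In the 17 genes with a minimum of 2 it was 1.45 (1.16 to 1.82), against 1.81 (1.74 to 1.89). In the 7 genes with a minimum of 3, proteasome genes had 23 RBFOX2 and 25 enzyme-only sites, a ratio of 0.920 (0.499 to 1.69), whereas other genes of that depth had 2.60 (2.35 to 2.87) and the intervals did not overlap. PSMB5 was 1 of the 7, and without it the ratio was 1.62 (0.772 to 3.51). At every depth, RBFOX2 sites were left out as shared even where the enzyme-only count was below the minimum. Among the 7 genes this dropped sites of PSMA1 and PSMB7 with at least 3 RBFOX2 reads against 2 enzyme-only reads. Ratios by depth were not recomputed with such sites, so the contrast at a minimum of 3 holds for this counting only. In the 4 deepest genes there were 9 sites against 3. For comparison, subunits of CCT, the ring-shaped chaperonin that folds actin and tubulin, had 99 RBFOX2 and 30 enzyme-only sites, 3.30 (2.17 to 5.14). The 6 CCT genes that both tables list had a minimum of 3 or of 4 or more. At these depths other genes had 2.60 and 3.89. Cytosolic ribosomal protein genes had 238 and 250, a ratio of 0.952 (0.794 to 1.14).

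**Figure D1:**
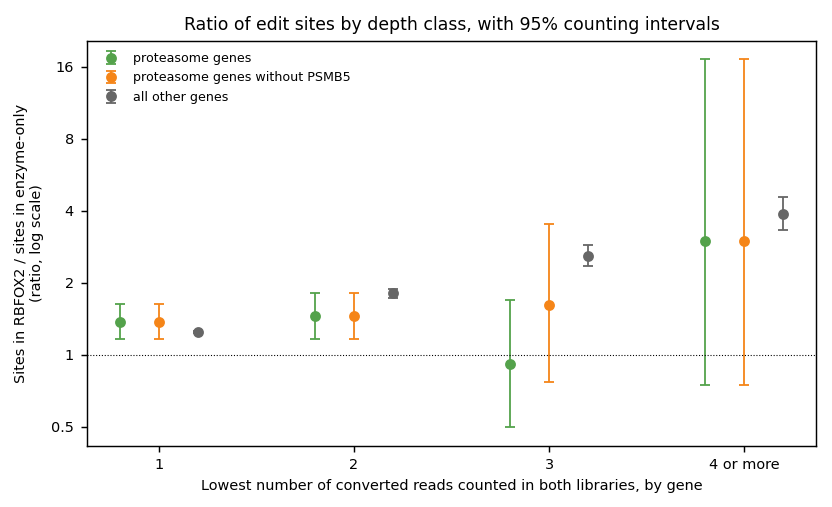
Ratio of unshared edit sites, RBFOX2 over enzyme-only (y axis, log scale), by the minimum of converted reads applied to both libraries (x axis), for proteasome genes with and without PSMB5 and for all other genes. Bars are 95% counting intervals; other genes go from 1.25 to 3.89 with depth, and proteasome genes stand at 0.920 in the class of 3. RBFOX2 sites that the enzyme-only table lists below the minimum are left out as shared.

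By role, the alpha ring had 43 RBFOX2 against 23 enzyme-only sites, 1.87 (1.10 to 3.25), and the beta ring 31 against 26, 1.19 (0.685 to 2.09). The core was thus sparsely listed in both libraries, in genes that are mostly deep. The 19S ATPases had 51 against 42, 1.21 (0.791 to 1.87), and the 19S non-ATPase subunits 260 against 197, 1.32 (1.09 to 1.60). The PSME activators had 26 against 27, 0.963 (0.540 to 1.71), and the inhibitor PSMF1 had 40 against 33, 1.21 (0.745 to 1.98). For the beta ring, ATPases, activators and PSMF1 the interval included equal numbers of sites. The assembly chaperones stood at 101 against 52, 1.94 (1.38 to 2.77). Theirs was the only role whose whole interval lay above the 1.28 of other genes. Within depth classes it did not: the 3 chaperones with a minimum of 1 had a ratio of 1.55 (0.952 to 2.57) and the 3 with a minimum of 2 had 2.43 (1.47 to 4.15), around the 1.25 and 1.81 of other genes. Reads of the chaperones summed to 2386 in the RBFOX2 library and 1975 in the other, a ratio of 1.21, and the part of this in the site counts was not tested.

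**Figure D2:**
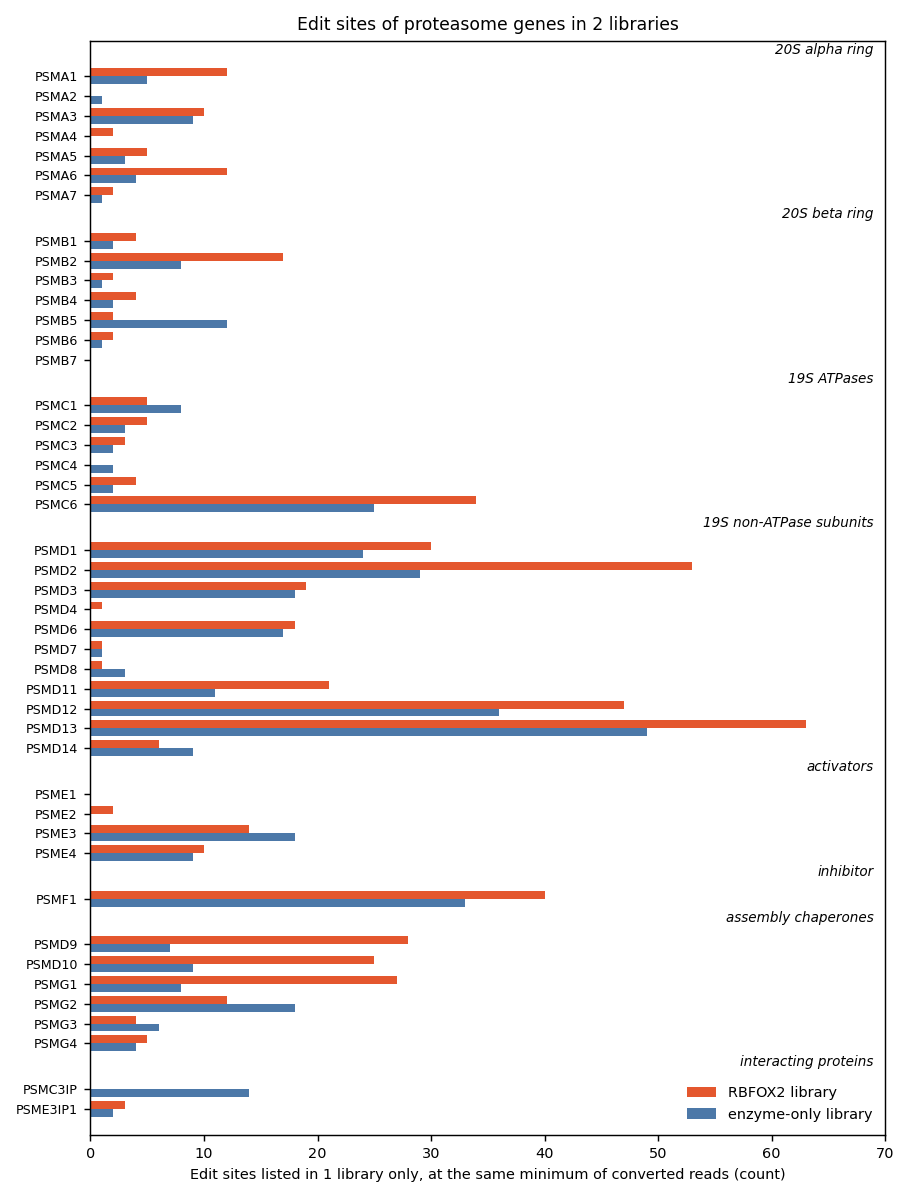
Unshared edit sites per proteasome gene at the same minimum of converted reads (x axis, count), in the RBFOX2 library (red) and the enzyme-only library (blue), grouped by role. PSMD13 had the most, 63 and 49, PSMB5 had 2 and 12, and PSMD9, PSMD10 and PSMG1 had 28, 25 and 27 against 7, 9 and 8.

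For each gene with at least 10 unshared sites, the log2 ratio of sites was taken after adding 0.5 to each count and scaling by the total unshared sites of each library. Of 5304 genes of this kind, 18.5% were more than 2-fold higher in the RBFOX2 library and 15.6% more than 2-fold lower. Of the 24 proteasome genes, 4 were higher and 2 lower, no larger a share than over all genes in this counting. One of the lower 2, PSMC3IP, is absent from the RBFOX2 table. Among genes that both tables list, 4 of 23 were higher and 1 lower, beside 18% and 15.2% of 5230 genes. The median log2 ratio of these 23 was -0.03, against 0.04 over the 5230 genes. The 4 higher genes were PSMD9, PSMG1, PSMA6 and PSMD10, followed by PSMA1, and the lowest of those listed in both tables were PSMB5, PSMC1, PSMG2 and PSMD14.

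**Figure D3:**
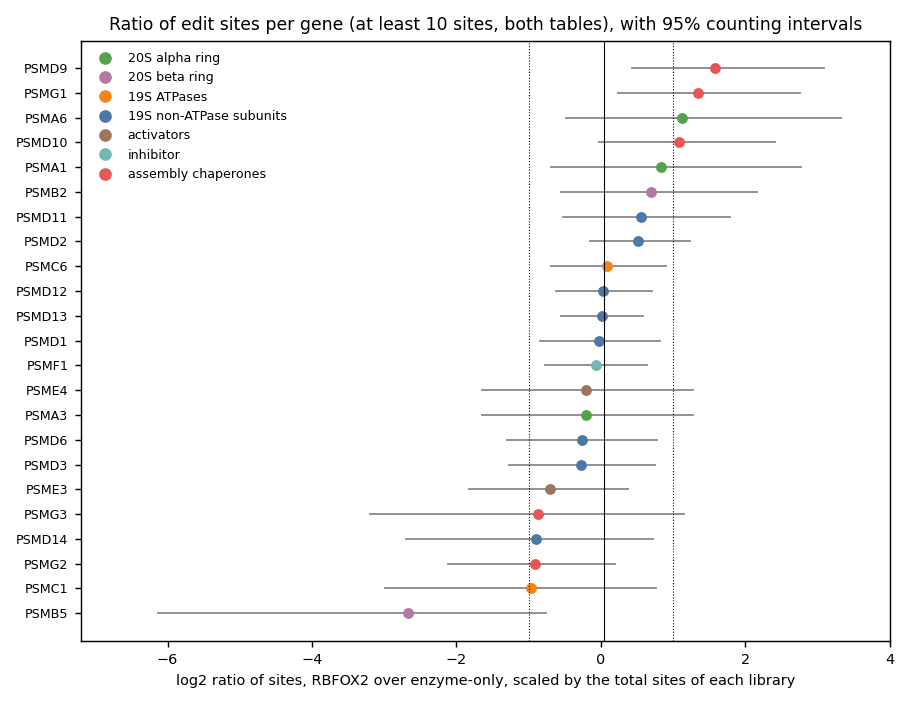
Log2 ratio of sites per gene (x axis; RBFOX2 over enzyme-only, scaled by library totals) for the 23 proteasome genes with at least 10 sites that both tables list, coloured by role. Lines are 95% counting intervals, dotted lines mark 2-fold and the solid line is the median of all 5230 such genes; PSMD9 is highest at 1.58 and PSMB5 lowest at -2.67.

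PSMD9, a chaperone that binds an ATPase during assembly of the cap, had 28 RBFOX2 and 7 enzyme-only sites in 437 and 351 reads, a log2 ratio of 1.58 (0.43 to 3.09). Its sites mostly rested on 1 converted read, with a maximum of 3 in the RBFOX2 library, at codon 104 (chr12:121899704), and of 2 in the other. Of the RBFOX2 sites 14 were coding and 9 in the 3′UTR, and 7 lay within 200 nt of UGCAUG but none within 50 nt. The locus of PSMD9 also overlaps a second protein-coding annotation that has no symbol.

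PSMG1, which with PSMG2 starts the building of the alpha ring, had 27 against 8 sites in 635 and 513 reads, 1.35 (0.23 to 2.76). All counted sites had 2 to 5 converted reads in the RBFOX2 library, 71 in total, and 2 to 4 in the enzyme-only library, 20 in total. In the RBFOX2 library 24 of the 27 were coding and 24 had A or U before the cytosine. The highest, with 5 converted reads, was a synonymous position in codon 161 (chr21:39178621). None lay within 200 nt of UGCAUG in either library.

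PSMG2 and PSMG3, also chaperones of the core, had the other order. PSMG2 had 12 RBFOX2 and 18 enzyme-only sites in 100 and 102 reads, -0.91 (-2.12 to 0.20), and PSMG3 had 4 against 6. PSMG4 had 5 and 4. The assembly chaperones were thus split, with 3 of the 5 that had enough sites more than 2-fold higher in the RBFOX2 library, beside 18.5% of all genes, and 2 lower by less than 2-fold.

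PSMD10 had 25 RBFOX2 and 9 enzyme-only unshared sites with at least 2 converted reads, in 564 and 433 reads, 1.08 (-0.02 to 2.41). In the RBFOX2 library 22 of the 25 were in the 3′UTR of 767 nt, from 21 to 667 nt after the stop codon, and all 25 had A or U before the cytosine. In the enzyme-only library 4 of 9 were in the 3′UTR and 6 of 9 had A or U before the cytosine. Converted reads summed to 79 and 21. The gene had 10 more sites that both tables listed. At all 10 the edit fraction was higher in the RBFOX2 library, with 3 to 5 converted reads against 1 to 2 in the enzyme-only library. The RBFOX2 table lists this gene from 2 converted reads and the enzyme-only table from 1, so shared sites had to have 2 in the former. Taken as listed, 60 sites stood in the enzyme-only table and 35 in that of RBFOX2, 10 of them shared, and the log2 ratio of the unshared ones was -1.25. No site of PSMD10 lay within 200 nt of UGCAUG in either library.

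**Figure D4:**
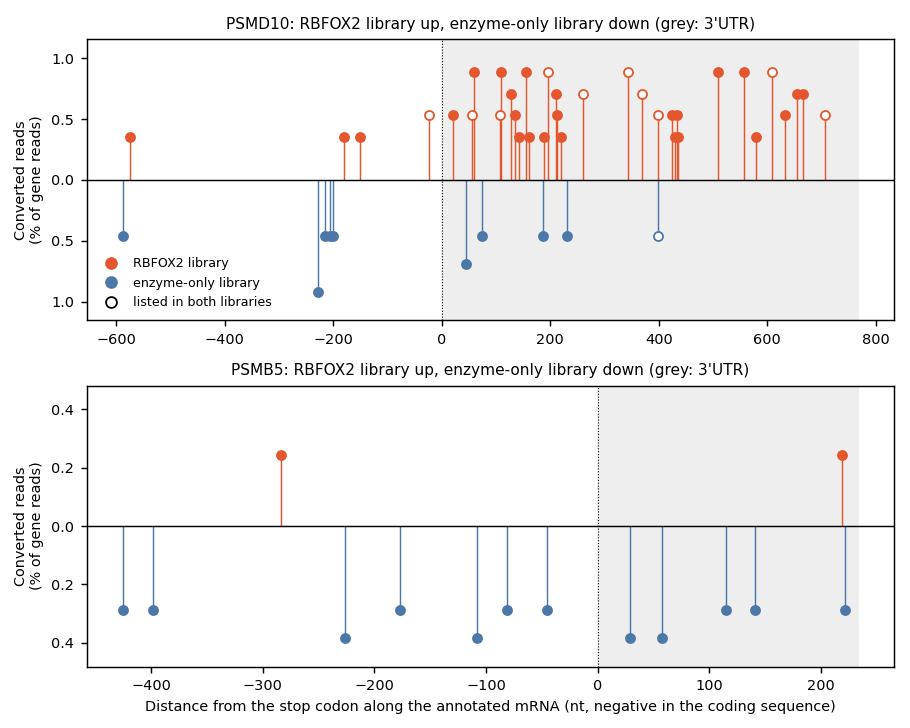
Edit sites of PSMD10 and PSMB5 with at least 2 and 3 converted reads, by distance from the stop codon (x axis, nt) and converted reads as a percent of the gene's reads (y axis; RBFOX2 library upward, enzyme-only library downward). Open points are sites listed in both tables, whose enzyme-only value is drawn only where it reached the minimum; the RBFOX2 points of PSMD10 fill the 3′UTR (grey) and those of PSMB5 number 2.

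PSMB5 was the only subunit of the particle with at least 10 sites that stood more than 2-fold lower in the RBFOX2 library. It had 1227 reads there and 1040 in the enzyme-only library, so the same minimum of 3 converted reads held in both. The enzyme-only library listed 12 sites, 5 in the 3′UTR and 7 coding, each with 3 or 4 converted reads and 40 in all. The RBFOX2 library listed 2, each with 3. No site was shared, and the log2 ratio was -2.67 (-6.13 to -0.76). All 12 enzyme-only sites had A or U before the cytosine, 9 of them A. Edit fractions of the enzyme-only sites ran from 0.288% to 0.385%, and both RBFOX2 sites stood at 0.244%. The 3′UTR sites at 219 nt (RBFOX2) and 222 nt (enzyme-only) after the stop codon were neighbours. The gene's UGCAUG, in the 5′UTR at chr14:23035131-23035136, had no site within 50 nt. Of its 8 isoform models, 7 held a site, and all 7 had more enzyme-only sites.

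The other active-site subunits, PSMB6 and PSMB7, had few sites. PSMB6 had 2 against 1, with 605 and 575 reads. PSMB7 had no unshared site at its minimum of 3 but 3 shared ones, among them the enzyme-only site with the most converted reads of any proteasome gene, 8 of 857 reads at chr9:124415434 in the 5′UTR. Of the structural beta subunits PSMB2 had 17 against 8 sites, 0.70 (-0.55 to 2.16), including 7 RBFOX2 and no enzyme-only sites in the 3′UTR. PSMB1 had 4 against 2, and 1 of these carried 8 converted reads of 1785 at chr6:170535209, 11 nt after the stop codon, in the RBFOX2 library alone. PSMB3 and PSMB4 had 2 against 1 and 4 against 2.

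In the alpha ring, PSMA6 had 12 against 4 sites in 707 and 614 reads, 1.13 (-0.48 to 3.33), and PSMA1 had 12 against 5 in 1069 and 879 reads, 0.84 (-0.69 to 2.77). PSMA1 also had 13 shared sites, 10 of them with more converted reads in the RBFOX2 library and 2 with fewer, including 8 converted reads at chr11:14510876 in codon 207. PSMA1 is listed from 3 converted reads in the RBFOX2 table and from 2 in the enzyme-only table. Shared sites with 2 enzyme-only reads thus had to have more in the RBFOX2 library. The locus of PSMA3 had 10 and 9, and PSMA5 5 and 3. PSMA7, with 2966 and 2572 reads the deepest of the 44 genes, had 2 against 1 at its minimum of 6, and PSMA4 had 2 against 0 at a minimum of 4. PSMA2 had 1 enzyme-only site and was absent from the RBFOX2 table, so its reads there are not known. Loci of PSMA1, PSMA2 and PSMA6 overlap unnamed protein-coding annotations, so some of their sites may belong to those genes. The loci of PSMA3 and PSMA4 also overlap ACTR10 and HYKK. Both RBFOX2 sites of PSMA4 were in its own coding sequence. In the PSMA3 locus, 8 RBFOX2 and 5 enzyme-only sites lay in the isoform model from chr14:58244769 to 58272002. The other 2 and 4 lay in a separate model, from 58199917 to 58234790. They may belong to ACTR10 and are counted in the alpha ring above.

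In the cap, PSMC6 had the most counted sites of the ATPases, 34 against 25 in 359 and 343 reads, 0.09 (-0.69 to 0.90), and 19 shared sites. It was the only ATPase with a minimum of 1 converted read. As listed, the enzyme-only table held 48 sites of PSMC2 and 44 of PSMC6. PSMC1 had 5 against 8, -0.97 (-2.98 to 0.77), all coding. PSMC2, PSMC3 and PSMC5 had 5, 3 and 4 RBFOX2 sites against 3, 2 and 2, and PSMC4 had 2 enzyme-only sites and was not in the RBFOX2 table.

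Among non-ATPase subunits the most counted sites were in PSMD13 (63 and 49), PSMD2 (53 and 29), PSMD12 (47 and 36) and PSMD1 (30 and 24). These are the 4 with a minimum of 1 converted read, and the others had a minimum of at least 2. PSMD2, a scaffold that docks ubiquitin-like domains, had the highest log2 ratio of these 4 genes, 0.51 (-0.16 to 1.23), and PSMD13, PSMD12 and PSMD1 lay at 0.01, 0.03 and -0.03. PSMD11 had 21 against 11, PSMD3 19 against 18 and PSMD6 18 against 17. PSMD14, the deubiquitinase that removes ubiquitin chains at the cap, had 6 against 9, -0.89 (-2.70 to 0.72). As listed it had 10 RBFOX2 and 39 enzyme-only sites, the latter more than the 37 of PSMD2 or the 27 of PSMD1. PSMD4, a ubiquitin receptor, had 1 against 0, PSMD7 1 and 1, and PSMD8 1 against 3.

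Of the activators, PSME3, the nuclear form, had 14 against 18 sites and PSME4, with 95 and 97 reads the least deep proteasome gene in both tables, had 10 against 9. PSME2 was listed in the RBFOX2 table alone, with 12 reads and 2 sites, and PSME1 in neither. PSME3IP1 had 3 against 2. PSMC3IP, whose product acts in meiotic recombination, had 14 enzyme-only sites of 1 converted read each in 76 reads and was absent from the RBFOX2 table. Its depth there is unknown, so its place among the lower genes rests on an absence from that table.

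In both libraries the sites of proteasome genes lay mostly in coding sequence, 72.3% (68.3 to 75.9) of RBFOX2 and 71.6% (67.0 to 75.9) of enzyme-only sites. Of all cytosines in the exons of the same genes, 38.4% and 38.9% were coding, weighted by sites. Exonic cytosines include those of retained introns and of exons outside the annotated gene, so the coding and 3′UTR shares expected do not add up to the whole. In the 3′UTR lay 24.1% (20.6 to 27.9) with the RBFOX2 antibody and 22.1% (18.2 to 26.4) without it, against 24.3% and 24.5% of cytosines. Other genes had 42.4% (RBFOX2) and 36.3% (enzyme-only) of sites in 3′UTRs, above the intervals of the proteasome genes and above the 28.9% and 28.3% of their cytosines. Without PSMD10 the RBFOX2 share of the proteasome genes was 21.1%.

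With coding sequence read first, that gap to other genes held in both depth classes. Where 1 converted read was enough, 3′UTR shares were 19.4% (15.2 to 24.1) in the RBFOX2 library for proteasome genes and 41.4% for other genes, against 27.5% and 29.0% of cytosines. Where at least 2 were needed, they were 31.1% (25.2 to 37.6) and 53.1% (52.0 to 54.2), against 19.8% and 26.9%. The 3′UTR share of proteasome genes was thus below that of their cytosines in the first class and above it in the second. The share depends on how overlapping annotations are read, because several proteasome genes have transcripts whose 3′UTR covers coding exons of the main mRNA. With 3′UTR taken before coding sequence it was 62.2% and 61.3%, and 44.6% and 46.0% of cytosines. The share of other genes in that order is not given here, so the gap is not known for it.

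The base before the cytosine was A or U, the context APOBEC1 is known to prefer, at 76.8% (73.0 to 80.2) of RBFOX2 and 73.6% (69.04 to 77.7) of enzyme-only sites, against 49.7% and 49.5% of exonic cytosines. In other genes it was 71.7% and 64.0%, against 46.0% and 45.0%. Of coding sites, 55.03% (49.99 to 59.98; RBFOX2) and 55.1% (49.2 to 60.8; enzyme-only) would change an amino acid or create a stop codon, against 58.6% and 58.5% of the coding cytosines. Stop codons would arise at 26 RBFOX2 sites in 13 genes and at 16 enzyme-only sites in 10 genes, none with more than 3 converted reads, among them codon 123 of PSMB5 (CGA to UGA) in the enzyme-only library and codon 192 of PSMD1 (CAG to UAG) in the RBFOX2 library.

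**Figure D5:**
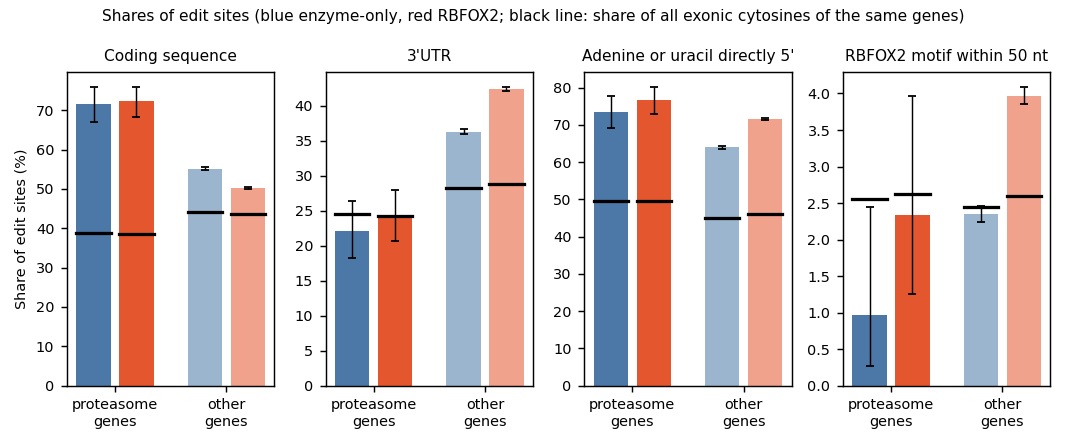
Shares of unshared edit sites (y axis, %) that lie in coding sequence, in the 3′UTR, after adenine or uracil, or within 50 nt of the RBFOX2 motif, for proteasome genes and other genes in the enzyme-only (blue) and RBFOX2 (red) libraries, with 95% counting intervals. Black lines give the share of all exonic cytosines of the same genes; the motif share of proteasome genes, 2.34% in the RBFOX2 library, lies below that of other genes, 3.97%.

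Exons of the proteasome genes hold 34 copies of UGCAUG in 21 genes, 10 of them in coding sequence and 11 in 3′UTRs. A listed site of either library lay within 50 nt of 12 copies, an RBFOX2 site at 10 and an enzyme-only site at 8. Of the unshared RBFOX2 sites 13 of 555 were that close, 2.34% (1.25 to 3.97), where 2.62% of the exonic cytosines were. In the enzyme-only library it was 4 of 416, 0.962% (0.263 to 2.44), where 2.55% were. Other genes had 3.97% of RBFOX2 sites, against 2.59% of cytosines, and 2.35% of enzyme-only sites, against 2.44%. At depths where at least 2 converted reads were needed, the RBFOX2 share was 1.32% (0.272 to 3.80), 3 of 228 sites, for proteasome genes. It was 5.80% (5.30 to 6.33) for other genes, and the intervals did not overlap. Of cytosines, 2.51% and 2.76% were that close. Sites of PSMB4 and PSMG3 with 2 and 3 RBFOX2 reads were left out as shared, with 1 enzyme-only read each, below the minimum of 2. Where 1 read was enough, the RBFOX2 share was 3.08% (1.49 to 5.59) for proteasome genes and 3.78% for other genes.

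The 17 unshared sites beside a motif were spread over few genes. PSMA7 had the site with the most converted reads, 7 of 2966 in the RBFOX2 library, 3 nt after a UGCAUG in codon 72 and synonymous. Its minimum was 6 in both libraries, so an enzyme-only site of fewer reads would not be listed. PSMC6 had 4 such RBFOX2 sites with 1 converted read each, at a motif in a non-coding exon and at one in the 3′UTR, and 5 more sites around the latter, in the last codons and first part of its 3′UTR that both tables listed, with 1 to 3 converted reads in each library. PSMD1 had 3 RBFOX2 sites of 1 converted read, at 2 and 19 nt after a coding motif and 32 nt after one in the 3′UTR. PSMG4 had 3 RBFOX2 sites of 1 converted read, 45 to 48 nt before a motif outside its exons. PSMC1 had 1 RBFOX2 site, and PSMD6 had 1 in each library.

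In the enzyme-only library alone, unshared sites beside UGCAUG were found in PSMA3, PSMG3 and PSME4. At the 3′UTR motif of PSMG3 the enzyme-only table listed 6 sites and the other table just 1, which was shared, but only 1 of those 6 had the 2 converted reads required in both. Besides PSMC6 and PSMG3, a shared site lay beside a motif in PSMC1, PSMB4 and PSMD4, the last with 5 converted reads in each library, 36 nt before the motif. PSMD11 and PSMF1 have 3 and 2 exonic copies with no site within 50 nt in either library.

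Shared sites made up 19.3% (16.4 to 22.5) of the RBFOX2 and 17.7% (15.04 to 20.6) of the enzyme-only sites listed for proteasome genes, and 10.5% and 12.4% in other genes. This gap depended on depth. Where 1 converted read was enough, shares were 17.7% against 9.84% in other genes (RBFOX2) and 22.9% against 11.97% (enzyme-only). Where at least 2 were needed, they were 21.6% (17.1 to 26.8) against 19.6%, and 14.7% (11.5 to 18.44) against 18.39%. Both intervals thus included the share of other genes. Proteasome genes had 133 shared sites, with a median edit fraction of 0.307% and 0.285%, none above 2.10%. Converted reads were equal in both libraries at 59 of them, more in the RBFOX2 library at 57 and more in the enzyme-only library at 17, and summed to 322 and 239. Some of these genes are listed from a higher count in the RBFOX2 table, as PSMD10 and PSMA1 are, and the part of this was not tested. The 5 sites of each library with the most converted reads included shared and unshared ones. In the RBFOX2 library they were a synonymous site in codon 98 of PSMG3 (chr7:1567773, 11 of 546 reads), the sites of PSMA1 and PSMB1 named above with 8 each, codon 762 of PSMD1 (7 of 333) and codon 144 of PSMB2 (7 of 775). All but that of PSMB1 were shared. In the enzyme-only library they were PSMB7 with 8, the same PSMB2 codon with 7 of 762, PSMA7 with 7 of 2572 in the 3′UTR, PSMA1 with 6 of 879 in the 3′UTR and codon 294 of PSMD6 with 5 of 593, the first pair of them shared.

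Of the 690 isoform models of proteasome genes, 636 held a site. The share of an isoform's cytosines that were edited had a median of 2.87% (RBFOX2) and 2.32% (enzyme-only), with 470 isoforms higher and 136 lower in the RBFOX2 library. These shares were not scaled by library totals, and isoforms of other genes were not counted beside them. Over all genes, unshared sites numbered 109194 (RBFOX2) and 85882 (enzyme-only), a ratio of 1.27. Isoforms of a gene share most of their sites, so these are not independent counts. The highest medians were 16.1% and 12.5% for PSMD13, 15.5% and 9.28% for PSMD12 and 13.9% and 9.95% for PSMC6 (RBFOX2 and enzyme-only). Each of these genes had a minimum of 1 converted read. For PSMD9 the medians were 8.84% and 1.43% and for PSMB5 0.638% and 3.83%.

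The wider pathway was counted from a list of 28 genes, of which 27 had a locus. They had 509 RBFOX2 and 404 enzyme-only sites, 1.26 (1.10 to 1.44), close to the proteasome genes. Of 18 with at least 10 sites, 5 were more than 2-fold higher in the RBFOX2 library and 3 lower, beside 18.5% and 15.6% of all genes, with a median log2 ratio of 0.31. One of the lower 3, the ubiquitin ligase UBE3C, had 31 enzyme-only sites and is absent from the RBFOX2 table, so its depth there is not known. The others were ZFAND5, with 39 RBFOX2 against 77 enzyme-only sites (-1.32), and UBQLN4, a ubiquitin-binding shuttle protein, with 13 against 25 (-1.26). POMP, the maturation factor of the core, had 15 RBFOX2 sites against 1 in 571 and 599 reads. UCHL5, a deubiquitinase of the cap, had 60 against 21, 12 and 1 of them beside UGCAUG. Sites within 50 nt of UGCAUG made up 9.04% (6.69 to 11.9) of RBFOX2 sites in this list, where 3.22% of cytosines were, and 4.21% (2.47 to 6.65) of enzyme-only sites, where 4.08% were. The RBFOX2 interval does not overlap that of the proteasome genes. Of its 46 sites beside the motif, UCHL5 gave 12, ZFAND5 10 and UBQLN1 6. The interval treats sites of a gene as independent, so a difference between the lists was not tested.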

How the data were processed

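Per the labels, both libraries were made with an Iso-Seq kit of PacBio, and the genome build is hg38. The study's methods describe another kit (Kinnex), pbmm2 alignment to hg38, primary alignments and edit calling with the authors' own code, and whether it made these tables is not stated. For each position the authors deposited a count of converted reads, a count of reads of its gene, an edit fraction (the first divided by the second, over 0.002 at every listed position) and a confidence fraction, which was not used. The authors also deposited isoform models with exon starts and ends and no levels. The study describes replicate long-read libraries, and those beyond 1 per group are not analysed here. The tool that built those models is not given in the sources used here.

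From these, loci were matched to GENCODE 44 with bedtools 2.31.1. Sites on the opposite strand of a proteasome locus were left out, 4 in the enzyme-only library and 0 in the RBFOX2 library. Where annotations overlapped, coding sequence came before UTRs (3′ before 5′), and these before other exons and introns. Codons were read in 1 transcript per gene. UGCAUG was searched on the RNA strand of the genome, and a site counted as near within 50 nt. Expected shares average, over the sites, the share among the exonic cytosines of the gene. Sequences were read from hg38 with pysam 0.24.0, and intervals came from scipy 1.17.1. The functions were tested on simulated data. Depth is the reads per gene, 95 to 2966 in proteasome genes listed in both tables, and sets the smallest edit fraction seen.

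Groups were taken from the descriptions in the labels. Full values were given for PSMB5, the 5 highest and 5 lowest log2 ratios, genes with a site near UGCAUG, the deepest and least deep genes, and the 5 sites of each library with the most converted reads, ties broken by edit fraction. The members, roles and lists were chosen with earlier results of these data known. Alternatives are given in the closing section.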

Additional observations from a re-analysis of the deposited data

How the results depend on the processing

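No paired analysis was possible because each condition had 1 library, numbered 2 (RBFOX2) and 1 (enzyme-only) in the labels, and none could be left out. Of 88 values recomputed under other settings, 69 stayed within their counting intervals or within 1.5 times a count, although PSMA1 among them changed sign, to -0.66 with sites as listed. With sites as listed, the ratio of sites was 0.898, PSMD10 had a log2 ratio of -1.25 and PSMD14 of -2.71. Beyond 2-fold were then 11 of 27 genes, 8 of them lower (16.9% of all genes). The RBFOX2 table lists 11 of the proteasome genes from a higher count of converted reads. PSMB5 and PSMC3IP, lower in the main counting too, are not among those genes. With at least 20 sites required, 3 of 15 genes were beyond 2-fold, all higher (15.9% of all genes), and 0 lower (12.9%). With scaling by gene reads, or with genes listed in both tables alone, 1 of 23 was lower (11.2% and 15.2% of all genes). Reading 3′UTR before coding sequence gave 3′UTR shares of 61.3% (enzyme-only) and 62.2% (RBFOX2). Requiring 2 converted reads gave 29.5% for the RBFOX2 share in 3′UTRs (21.3% of cytosines), 1.12% near UGCAUG (2.38%), and 82.0% (enzyme-only) and 85.8% (RBFOX2) with A or U before the cytosine. Windows of 20 nt around UGCAUG gave 0.240% and 0.901%, and windows of 200 nt 6.97% and 10.1%, against 1.08% and 1.13%, and 9.53% and 9.58%, of cytosines. Leaving out PSMB5, PSMD10, PSMC6 or the interacting proteins, taking genes listed in both tables, and calling a site shared only where both libraries reached the minimum were chosen after seeing the data. The main counting leaves out RBFOX2 sites at the minimum where the enzyme-only table lists the position below it. With sites shared only where both reached the minimum, the ratio was 1.40 (1.23 to 1.59). Of 25 genes, 6 were then more than 2-fold higher (18.9% of all genes) and 2 lower (15.8%). PSMA1 stood at 1.55 and PSMD10 at 1.51. The limit of 0.002 hides sites of 1 converted read in genes of 500 reads or more, which includes 28 of the proteasome genes in the RBFOX2 table and 25 in the enzyme-only table.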
